A study of Mus musculus with 2 samples.

Results

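The 8 genes described here encode the parts of secreted antibody and the receptor that carries it across epithelium: the heavy chains Igha, Ighm, Ighd and Ighg2b, the light chain genes Igkc and Iglv1, the joining chain Jchain, and Pigr. They were taken by symbol from the 31053 genes of the files, all 8 were found, and they were chosen by their UMI counts in B and plasma cells, tubule and background of these same libraries, so their values are given as a description with no test. The tissue was kidney cortex from mice aged 12 weeks, dissociated and run on a droplet platform that tags every captured RNA molecule with its own identifier (UMI). One group was a single library labelled for I-PpoI, a homing endonuclease that cuts DNA and that the series title places in podocytes, the filtering cells of the glomerulus. The other was a single library of wild-type (WT) kidney. The labels give neither the promoter that drives I-PpoI nor the number of mice in a library. With 1 library per group no difference has a replicate check, no p-value is given, and the 95% intervals cover counting error only.

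B cells carry IgM and IgD on their surface as antigen receptors. After activation a B cell can switch its heavy chain to IgG, IgE or IgA, and plasma cells secrete the resulting antibody in large amounts. Each B cell normally keeps either a kappa light chain, whose constant part is Igkc, or a lambda one, whose constant parts are the Iglc genes. The joining chain links IgA into dimers and IgM into pentamers. The polymeric immunoglobulin receptor, Pigr, binds these polymers at the base of an epithelial cell and carries them to its apical surface.

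After filters, 3949 I-PpoI cells with 35037164 UMIs and 3094 WT cells with 19595441 UMIs were compared, at medians of 6647 and 3486.5 UMIs per cell. Mitochondrially encoded genes gave a median 3.31% of UMIs in I-PpoI cells and 14.3% in WT cells. The 2 libraries shared 6 barcode sequences. Cell classes were rebuilt by clustering without any immunoglobulin gene, Jchain or Pigr, so that these genes did not define the clusters. Names were given from marker lists, and clusters that could not be named are called by number.

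Over all barcodes the I-PpoI library had 37811289 UMIs and the WT library 27793633, and the gene totals given next are not scaled for that. Igkc had 112256 UMIs in the I-PpoI library and 3287 in the WT library. Igha had 21345 and 3, Jchain 15561 and 316, Iglv1 2966 and 4, and Ighg2b 954 and 0. Ighm had 1754 UMIs in the I-PpoI library and 897 in the WT library, Ighd 47 and 79, and Pigr 1426 and 350. A single WT barcode, left out of the classes by its doublet score, held much of the WT totals, and without it the WT library had 455 Ighm, 1065 Igkc and 6 Jchain UMIs.

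Cluster 21 held the B and plasma cells, 29 in the I-PpoI library and 30 in the WT library. All 15 B cell markers and all 13 plasma cell markers reached the naming threshold in it. Within the cluster, a cell was called antibody-secreting where its UMIs of plasma cell markers outnumbered those of B cell markers, and B cell-like otherwise. That split was set after the data were seen and used none of the 8 genes. It gave 10 antibody-secreting and 19 B cell-like cells in the I-PpoI library, against no antibody-secreting and 30 B cell-like cells in the WT library. The counts depend on the clusters. A rule for single cells asked for 3 UMIs over 2 genes of the B and plasma cell lists, and more than of T cell markers. It put 1201 I-PpoI and 465 WT cells on the plasma side of the split. They are not taken as antibody-secreting cells, because other classes held these markers too. Distal nephron cells had 1438 UMIs of plasma cell markers in the I-PpoI library (10 of 13 detected) and 1056 in the WT library (9 of 13). The WT barcode left out by its doublet score had 17 UMIs of plasma cell markers and 4 of B cell markers. The antibody-secreting cells held all 13 plasma cell markers, while 8 of the 15 B cell markers were at 0 in them, among them Ms4a1, Cd22 and Pax5. Mzb1, a chaperone-associated protein of antibody-secreting cells, had 21 to 111 UMIs per antibody-secreting cell, and Xbp1, a transcription factor of the secretory programme, had 7 to 70. The split was made with these same marker lists, so their values describe the cells and do not test the name. Immunoglobulin genes made 45.8% to 68.4% of the UMIs of an antibody-secreting cell, with a median of 59.5%. In B cell-like cells the median was 1.18% in the I-PpoI library and 1.73% in the WT library. The ranges of antibody-secreting and B cell-like cells did not overlap.

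**Figure D1:**
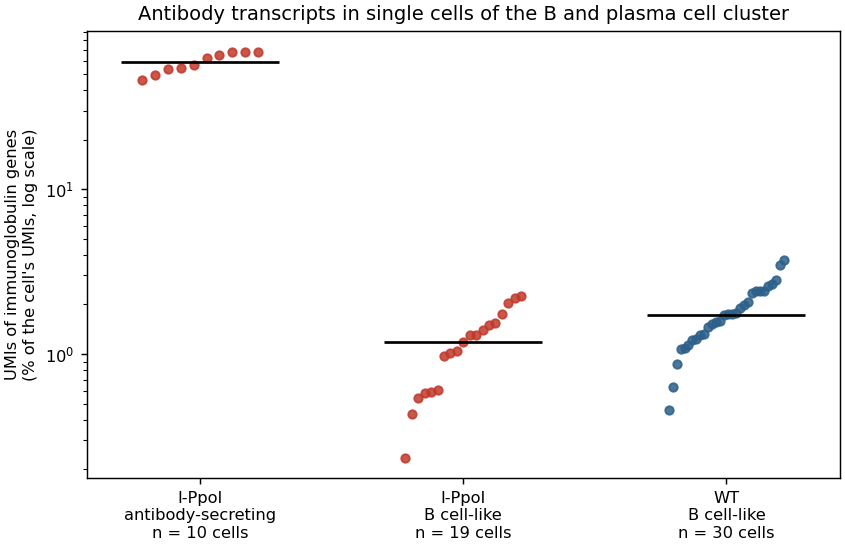
Each point is 1 cell of cluster 21, the vertical axis is the percent of its UMIs from immunoglobulin genes on a log scale, and lines are medians. The 10 I-PpoI antibody-secreting cells lie between 45.8% and 68.4%, above all 19 I-PpoI and 30 WT B cell-like cells.

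The 10 antibody-secreting cells held nearly all of the antibody UMIs of the I-PpoI library. They held 20976 of its 21345 Igha UMIs (98.3%, 95% Clopper-Pearson interval 98.1% to 98.4%). They held 109998 Igkc UMIs (98%), 15280 Jchain UMIs (98.2%), 928 Ighg2b UMIs (97.3%) and 2940 Iglv1 UMIs (99.1%). They held no UMI of Ighm, of Ighd or of Pigr. The I-PpoI totals of these genes therefore rested on 10 cells.

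Igha, the heavy chain of IgA, made 95.7% of the heavy chain UMIs of the antibody-secreting cells (95% interval 95.5% to 96.0%). Ighg2b made 4.24%, and Ighm, at 0 of 21911 heavy chain UMIs, was limited to a share of up to 0.0137%. Cell by cell, 9 of the 10 were IgA cells and 1 was an IgG2b cell. The 9 IgA cells had 3261, 3180, 3323, 1987, 2622, 1758, 2080, 1569 and 1196 Igha UMIs. The IgG2b cell had 928 Ighg2b UMIs and no Igha UMI. No cell had more than 5 UMIs of a second heavy chain, so that each cell carried 1 isotype. Igha lies on chromosome 12 at 113254830 to 113260236 (build GRCm38, which is mm10), on the minus strand, and Ighg2b at 113302965 to 113307933 on the same strand. Ighd (113406604 to 113416324) and Ighm (113418558 to 113422730) lie at the other end of the same constant gene cluster.

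Jchain, on chromosome 5 at 88519809 to 88527891 on the minus strand, was detected in all 10 antibody-secreting cells, the IgG2b cell included. The cells had 104 to 2988 Jchain UMIs with a median of 1454.5, and the IgG2b cell had the fewest. The 9 IgA cells had at least 243. Jchain had 0 UMIs in the B cell-like cells of either library, which allows up to 42.1 CPM (a gene's UMIs scaled to 1000000 UMIs of its class) in I-PpoI and 36.1 CPM in WT cells. The promoter window of Jchain, 250 bases before to 50 after its annotated start, is shown because Jchain separated the antibody-secreting from the B cell-like cells. It is taken from the RefSeq table of build GRCm38.p6, chr5:88527848-88528147, minus strand, 5′ to 3′.
Jchain: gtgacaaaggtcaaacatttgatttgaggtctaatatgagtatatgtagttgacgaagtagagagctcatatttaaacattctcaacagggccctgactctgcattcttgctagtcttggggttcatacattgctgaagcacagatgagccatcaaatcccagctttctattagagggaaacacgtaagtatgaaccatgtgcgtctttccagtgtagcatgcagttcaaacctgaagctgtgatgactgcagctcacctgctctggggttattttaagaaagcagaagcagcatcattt
None of the 5 motifs searched on both strands was found in that window. They were ATGCAAA, the core of the octamer of immunoglobulin promoters, present in 4.63% of the 32851 promoters of the table, the tandem GAAA element of interferon regulatory factors with 2 free bases between its repeats (3.44%), the E-box CACGTG (7.15%), TGANTCA of AP-1 (7.81%) and TTCNNNGAA of STAT factors (8.30%).

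Among light chains, 9 of the 10 antibody-secreting cells were kappa cells and 1 was a lambda cell. The kappa cells had 4930 to 25412 Igkc UMIs, and Igkc made at least 98.4% of the light chain constant UMIs of each. The lambda cell, an IgA cell, had 17680 Iglc1 UMIs and 1 Igkc UMI. That cell held most of the 17965 Iglc1 UMIs of the I-PpoI library, against 96 in the WT library. Igkc lies on chromosome 6 at 70726435 to 70726966 on the plus strand.

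Iglv1, a lambda variable gene, did not follow the light chain of the cell. It was detected in all 10 antibody-secreting cells, at 37 to 1019 UMIs with a median of 161. The lambda cell had 401, whereas the kappa cell with most antibody UMIs had 1019. As a share of light chain constant UMIs it ranged from 0.508% to 4.01%, and the lambda cell, at 2.27%, lay within the range of the kappa cells. Iglv1 lies on chromosome 16 at 19085017 to 19085500 on the minus strand, where the annotation also places 2010309G21Rik on the plus strand. The strand setting of the counting is not given in the sources used here, so reads of the 2 genes may not be told apart.

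The other variable genes differed from cell to cell. The 10 antibody-secreting cells had 9 different leading heavy chain variable genes, of which Ighv10-3 led in 2 cells. With Iglv1 left out they had 8 different leading light chain variable genes, 7 among the kappa cells. No pair of leading heavy and light variable genes was shared by 2 cells. Counts of a leading variable gene were small beside those of the constant genes, at 10 to 101 UMIs for heavy chains. The kit reads the 3′ end of transcripts, and the variable part lies at the 5′ end.

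**Figure D2:**
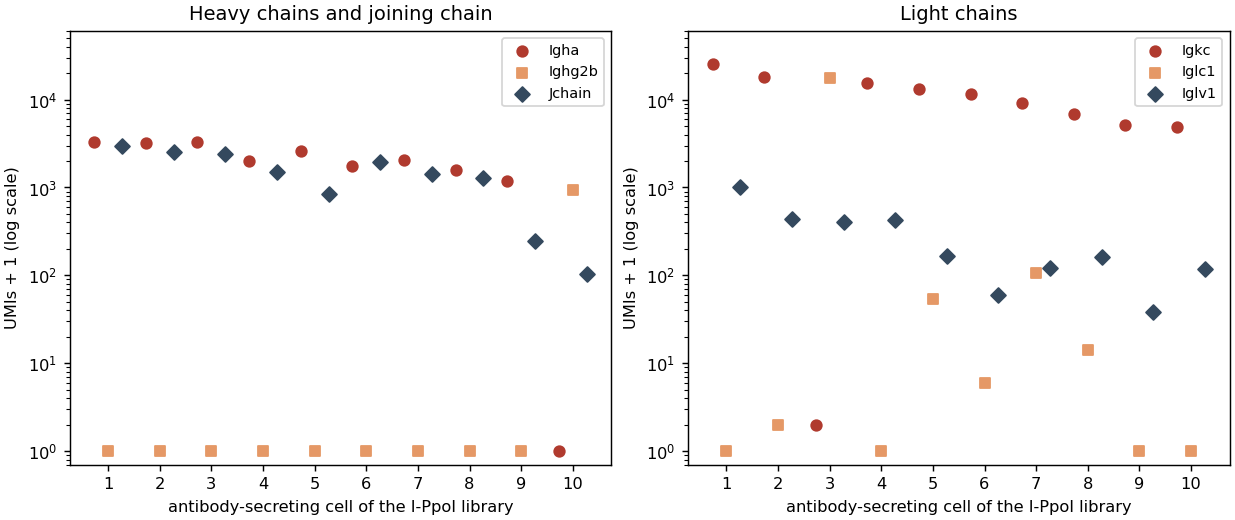
UMIs plus 1, on a log scale, in each of the 10 antibody-secreting cells of the I-PpoI library, with heavy chains and Jchain on the left and light chains on the right. Cells 1 to 9 carry Igha and cell 10 carries Ighg2b, cell 3 carries Iglc1 in place of Igkc, and Iglv1 is present in all 10.

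B cell-like cells of the 2 libraries had close heavy chain profiles. Ighm had 137 UMIs in 19 I-PpoI cells (1923 CPM, 95% interval 1615 to 2273) and 174 UMIs in 30 WT cells (2096 CPM, 1796 to 2431), a ratio of 0.918 (0.728 to 1.15). Ighd had 38 UMIs (533 CPM) in I-PpoI and 61 UMIs (735 CPM) in WT cells, a ratio of 0.726 (0.471 to 1.11). Both intervals include a ratio of 1, and neither gene passed the fold of 2 in either direction. Ighm made 71.4% of heavy chain UMIs in I-PpoI and 72.8% in WT cells, and Ighd 19.8% and 25.5%. Ighm or Ighd was detected in 16 of 19 I-PpoI and 30 of 30 WT cells. Of the switched chains, the I-PpoI cells had 3 Igha, 9 Ighg2b and 5 Ighg2c UMIs, and the WT cells had 3 Igha and 1 Ighg3 UMIs.

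Igkc was lower in I-PpoI B cell-like cells, at 416 UMIs (5839 CPM, 5292 to 6428) against 917 UMIs (11045 CPM, 10342 to 11784) in WT cells. The ratio of 0.529 (0.470 to 0.594) was short of a fold of 2, past which 16% of genes in these cells were lower. The ranges of single cells overlapped, at 3 to 54 Igkc UMIs in I-PpoI and 9 to 64 in WT cells. Kappa made 73.8% (69.9% to 77.3%) of light chain constant UMIs in I-PpoI and 74.9% (72.3% to 77.3%) in WT cells. The summed B cell markers were also lower in I-PpoI cells, at 8464 CPM with all 15 detected, against 14249 CPM with all 15 detected in WT cells. Macrophage markers had 2484 CPM in the I-PpoI cells, with 2 of 12 detected, against 205 CPM with 3 of 12 detected in the WT cells. The part of either list in the result was not tested. The direction of the Igkc ratio turned when clusters were made with the antibody genes included. The I-PpoI class then held the same 19 cells and 1 barcode of cluster 9 with 723 Igkc UMIs among 2170, which put it at 15515 CPM and the ratio at 1.40.

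Genes of antigen receptor signalling were measured in the same cells. Cd79a, a signalling chain of the receptor, had 1797 CPM in I-PpoI and 3541 CPM in WT cells, and its partner Cd79b 842 and 1385 CPM, both short of a fold of 2. Of 14 measured genes of the list 1 was higher (Blnk, an adaptor, at 225 CPM against 108 CPM in WT cells) and 2 were lower (Btk, a kinase, at 70.2 CPM against 145 CPM, and Cr2, the complement receptor, at 14 CPM against 181 CPM in WT cells). Over all 1742 genes measured in these cells 8.78% were higher and 16% lower by a fold of 2 or more. These 3 genes had 1 to 16 UMIs in each library. Of 4 measured antibody-binding receptors, Fcer2a, the low-affinity IgE receptor of mature B cells, was lower, at 84.2 CPM in I-PpoI against 373 CPM in WT cells. Fcmr, the IgM receptor, had 379 CPM in I-PpoI and 662 CPM in WT cells.

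Across 30 points (classes by library), genes whose levels were most like those of Igkc included Ly6d (Pearson r = 0.83), Bank1 (0.73), Fcer2a (0.71) and Pou2af1 (0.71), on log2 of CPM plus 10. The points share 2 libraries and their depths, and each holds at least 20 cells, so the 10 antibody-secreting cells are not among them.

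Outside cluster 21, Igkc was spread thinly over the I-PpoI classes and had at most 7 UMIs in any WT class. In the I-PpoI library Igkc had 23.5 CPM in macrophage-like cells, 39.9 CPM in T cell-like cells, 14.6 CPM in endothelium-like cells, 16.1 CPM in fibroblast-like cells and 16.5 CPM in the distal nephron. The WT library had 0, 5.13, 0, 0 and 0.593 CPM in the same classes. Over all named I-PpoI classes outside cluster 21, Igkc ranged from 3.63 CPM in cluster 3 to 63.0 CPM in neutrophil-like cells. An Igkc UMI was found in 12.1% of I-PpoI macrophage-like cells at a median of 8089 UMIs, in 7.28% of endothelium-like cells at 4347.5 UMIs and in 13.2% of distal nephron cells at 8649 UMIs.

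The proportions of these genes were compared inside and outside cluster 21. Jchain had 0.139 UMIs per Igkc UMI in the antibody-secreting cells (0.137 to 0.141) and 0.155 (0.126 to 0.189) in all cells outside cluster 21. Igha had 0.191 per Igkc UMI in the antibody-secreting cells (0.188 to 0.194) and 0.285 (0.243 to 0.333) outside. These outside values leave out 1 barcode of cluster 9, a cluster led by haemoglobin genes, which had 2170 UMIs in all with 723 of Igkc, 119 of Jchain, 90 of Igha and 7 of Ighg2b. With it the outside proportions were 0.160 for Jchain and 0.205 (0.181 to 0.233) for Igha. Over all cells outside cluster 21, the Igha interval lay above that of the antibody-secreting cells only with that barcode left out. That choice was made after the data were seen. I-PpoI macrophage-like cells had 0.324 Igha per Igkc UMI (0.260 to 0.401) and distal nephron cells 0.337 (0.217 to 0.511). Neither class held that barcode, and both intervals lay above that of the antibody-secreting cells. The intervals of fibroblast-like (0.224), T cell-like (0.121) and endothelium-like cells (0.346), cluster 7 (0.231) and the rest of cluster 9 (0.190) included 0.191. In the WT library 0 Igha UMIs and 12 Igkc UMIs lay in 3064 cells outside the B cells.

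Ighm differed from the other antibody genes in where it lay. In the I-PpoI library 89.6% of its 1754 UMIs were in cells outside cluster 21, and 7.81% in B cell-like cells. In the WT library 27.8% of 897 were outside, 19.4% in B cell-like cells and 52.3% in barcodes left out by their doublet score. A single left-out barcode held 442 of these WT UMIs. Without it the WT library had 455 Ighm UMIs, with 249 in cells outside cluster 21 and 174 in B cell-like cells. Most of the Ighm UMIs in cells outside cluster 21 were in macrophage-like cells. These had 1469 Ighm UMIs in 1658 I-PpoI cells (98.1 CPM, 93.1 to 103), against 188 UMIs in 187 WT cells (206 CPM, 178 to 238). The ratio was 0.476 (0.409 to 0.557), so Ighm was lower in I-PpoI macrophage-like cells, where 12.8% of 12247 genes were lower by a fold of 2 or more and 14.6% higher.

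Ighm outside the B cells was set beside the other antibody genes. The antibody-secreting cells had no Ighm UMI. Macrophage-like cells of the I-PpoI library had 4.17 Ighm UMIs per Igkc UMI (3.71 to 4.70), against 0.329 (0.269 to 0.400) in I-PpoI B cell-like cells. In the WT library the macrophage-like cells had 188 Ighm UMIs with no Igkc UMI, while the WT B cell-like cells had 0.190 Ighm per Igkc UMI. Levels of Ighm differed between classes, at 1.26 CPM in I-PpoI and 0.198 CPM in WT distal nephron cells, 2.25 and 0.400 CPM in endothelium-like cells, and 0 and 0.111 CPM in proximal tubule-like cells. B cell markers were at or near 0 in macrophage-like cells, with 2 Cd79a and 1 Ms4a1 UMIs in the I-PpoI cells and none of either in the WT cells. Of I-PpoI macrophage-like cells with an Ighm UMI 18.0% also had one of Igkc, Igha, Iglc1 or Jchain, against 17.6% of those without Ighm. In cells with none of these 4 genes Ighm had 101 CPM in I-PpoI and 206 CPM in WT cells.

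Macrophage-like cells came from unlike clusters: 635 of the 1658 I-PpoI and 156 of the 187 WT cells lay in cluster 10. Within it Ighm had 150 CPM in I-PpoI and 236 CPM in WT cells, a ratio of 0.636 (0.535 to 0.760), which is short of a fold of 2. Ighm was lower in the I-PpoI cells of the other 4 macrophage-like clusters too, at 109 against 175 CPM in cluster 11, 92.3 against 240 CPM in cluster 12, 20.8 against 77.8 CPM in cluster 15 and 26.3 against 91.1 CPM in cluster 22, where the WT library had 3 to 10 cells each. Only in clusters 10 and 22 did the interval of the ratio exclude 1. Cells thinned to 1000 UMIs had an Ighm UMI in 10.1% (8.68% to 11.7%) of 1627 I-PpoI cells, against 19.5% (14.1% to 26.0%) of 185 WT cells.

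T cell-like cells had 39 Ighm UMIs in the I-PpoI library (47.2 CPM, 33.6 to 64.5) and 19 in the WT library (97.5 CPM, 58.7 to 152), a ratio of 0.484 (0.273 to 0.887). Of 7455 genes measured in them, 8.06% were lower by a fold of 2 or more and 18.7% higher. Cluster 16, whose best match was the dendritic cell list, had 23.6 CPM in the I-PpoI library and 134 CPM in the WT library, a ratio of 0.176 (0.0855 to 0.348). Among classes with at least 5 Ighm UMIs in the library, the order of level in I-PpoI was B cell-like, macrophage-like, cluster 9 (82.6 CPM), T cell-like, cluster 16 and neutrophil-like cells (14 CPM), with fibroblast-like cells, cluster 7 and the distal nephron under 2 CPM. In the WT library it was B cell-like, macrophage-like, cluster 16, cluster 9 (102 CPM) and T cell-like cells. The intervals of T cell-like cells and cluster 16 overlapped in both libraries.

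**Figure D3:**
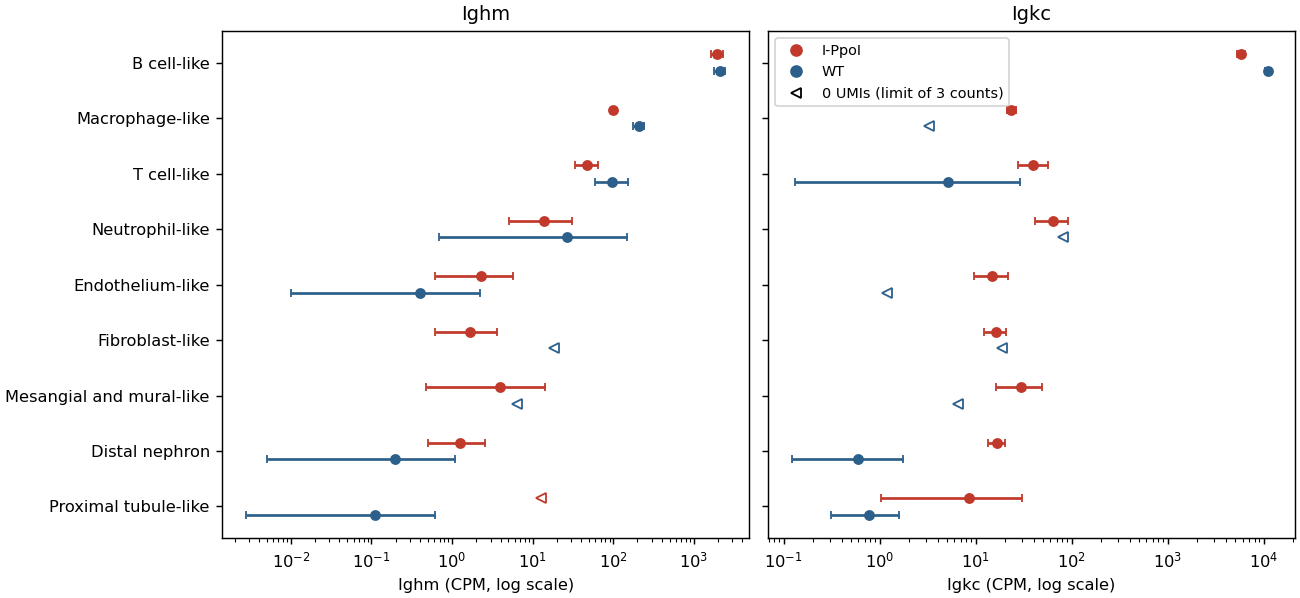
CPM of Ighm (left) and Igkc (right) by cell class on a log scale, with 95% Poisson intervals, I-PpoI above WT in each row. Open arrowheads mark 0 UMIs at the limit of 3 counts. Ighm reaches 98.1 CPM in I-PpoI and 206 CPM in WT macrophage-like cells, and Igkc is at 14.6 CPM or more in the I-PpoI classes drawn with the exception of proximal tubule-like cells, at 8.42 CPM.

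Pigr lies on chromosome 1 at 130826684 to 130852249 on the plus strand. Of its UMIs, 94.7% of 1426 in the I-PpoI library were in the distal nephron, the clusters named for thick ascending limb, distal convoluted and connecting tubule, principal or intercalated cells. In the WT library the distal nephron held 26.6% of 350, and proximal tubule-like cells held 58.0%. Its promoter window is shown because the level of Pigr differed between the libraries in all 4 distal clusters that both contained. It is from the same RefSeq table, chr1:130826434-130826733, plus strand, 5′ to 3′, with matches of the motifs given above in capitals.
Pigr: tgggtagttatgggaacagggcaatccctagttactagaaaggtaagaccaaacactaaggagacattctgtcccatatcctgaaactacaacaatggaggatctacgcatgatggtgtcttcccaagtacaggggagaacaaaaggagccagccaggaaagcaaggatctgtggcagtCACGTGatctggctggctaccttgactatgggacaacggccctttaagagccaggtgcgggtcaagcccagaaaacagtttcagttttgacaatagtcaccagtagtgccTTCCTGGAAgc
The capitals mark 1 E-box and 1 STAT motif, and the other 3 motifs had no match. A match describes the letters and no binding.

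In the distal nephron Pigr was higher in the I-PpoI library. It had 1351 UMIs in 357 I-PpoI cells (243 CPM, 230 to 256), against 93 UMIs in 519 WT cells (18.4 CPM, 14.8 to 22.5), a ratio of 13.2 (10.7 to 16.5). Of 12978 genes measured in these cells 16.5% were higher by a fold of 2 or more and 7.56% lower. A Pigr UMI was found in 35.9% of I-PpoI and 8.48% of WT cells, at median depths of 8649 and 3619 UMIs. Thinned to 1000 UMIs, with 42 I-PpoI and 113 WT shallower cells left out, the shares were 13% (9.51% to 17.2%) and 1.69% (0.674% to 3.47%). As background, a Pigr UMI was found in 0.302% of I-PpoI macrophage-like cells at a median of 8089 UMIs, and in none of 187 WT ones, which allows up to 1.60%.

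The 4 distal clusters present in both libraries had more Pigr in the I-PpoI library. In cluster 0, thick ascending limb-like, Pigr had 976 UMIs in 229 I-PpoI cells (250 CPM) and 0 in 48 WT cells, at least 42.4-fold higher against 3 counts in the WT cells, with an exact lower limit of the ratio of 34.4. In cluster 1, of the same name, it had 38 UMIs in 40 I-PpoI cells (448 CPM) and 2 in 176 WT cells (4.6 CPM), a ratio of 97.5 (25.2 to 835). In cluster 25, named for principal and intercalated cells, it had 278 UMIs (272 CPM) in 46 I-PpoI and 5 (4.90 CPM) in 56 WT cells, a ratio of 55.4 (23.4 to 172). In cluster 3, named for distal convoluted and connecting tubule and principal cells, it had 59 UMIs (107 CPM) in 42 I-PpoI and 48 (28.4 CPM) in 170 WT cells, a ratio of 3.77 (2.53 to 5.64). Cluster 3 had the smallest ratio, and its interval did not overlap those of the other 3. In clusters 0, 1, 25 and 3, 19.2%, 9.97%, 14.2% and 7.14% of genes were higher by a fold of 2 or more, and 13.7%, 24.6%, 6.05% and 11.6% lower. Cluster 30, a thick ascending limb-like cluster of 69 WT cells and no I-PpoI cell, had 38 UMIs (27 CPM). The names are those of whole clusters. Cluster 0 had 7 of 8 thick ascending limb markers, yet some of its cells with most Pigr had markers of other distal segments.

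Cell by cell, each distal cell was also placed by the marker list of which it held the largest share of genes. Principal cells, which reabsorb sodium and water in the collecting duct, had 360 CPM of Pigr in 69 I-PpoI cells, against 0 UMIs in 79 WT cells. Distal convoluted and connecting tubule cells had 218 CPM in I-PpoI and 51.2 CPM in WT cells. Thick ascending limb cells, which make uromodulin, had 196 CPM in I-PpoI and 22.3 CPM in WT cells, and intercalated cells 166 and 11.8 CPM. The principal cell level rested on few cells: it held the 4 I-PpoI cells with most Pigr, and without them it was 71.0 CPM (58.1 to 86.0) in 65 cells. The other 3 segments lost no cell in that step, so it cannot rank principal cells against them. The interval of the distal convoluted and connecting tubule (191 to 248 CPM) overlapped that of the thick ascending limb (176 to 218 CPM).

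Pigr UMIs in the I-PpoI distal nephron were concentrated in few cells. Of 357 cells, 128 had at least 1 UMI, 50 at least 5 and 29 at least 10, and the tenth of cells with most Pigr held 83.0%. The highest cell had 193 UMIs, or 14.3%, and without it the level was 210 CPM and the ratio 11.4 (9.24 to 14.3). The 29 cells with at least 10 UMIs lay in cluster 0 (19 cells), cluster 25 (8) and cluster 3 (2). They were deep cells, at a median of 36412 UMIs against 6169 UMIs in the 229 I-PpoI distal cells with no Pigr UMI, and the part of depth was not tested. The 4 highest, with 193, 119, 96 and 96 Pigr UMIs, had 0 to 2 Umod UMIs and 5 to 171 Fxyd4 UMIs, although 3 of them lay in cluster 0. Umod is the uromodulin gene of the thick ascending limb and Fxyd4 a collecting duct marker. Aqp2, which is on the principal cell list with Fxyd4, had only 0 to 3 UMIs in these 4 cells. Lcn2 had 297 to 1376 UMIs in them and Krt19 14 to 111. Cells lower in the list had Slc12a3, the sodium chloride cotransporter of the distal convoluted tubule (144 and 216 UMIs in 2 cells), or Umod with Slc12a1 (662 and 81 UMIs in the cell with 46 Pigr UMIs). High Pigr therefore occurred in cells with markers of more than 1 distal segment.

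**Figure D4:**
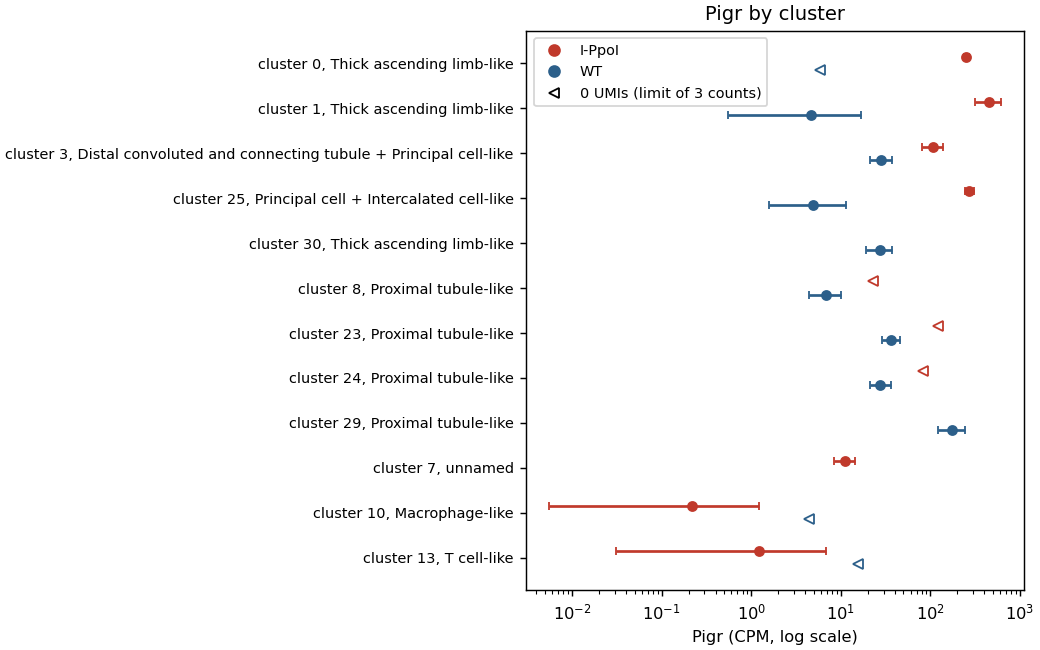
CPM of Pigr by cluster on a log scale, with 95% Poisson intervals, I-PpoI above WT in each row. Open arrowheads mark 0 UMIs at the limit of 3 counts. Clusters 0, 1, 3 and 25 reach 107 to 448 CPM in the I-PpoI library, and proximal tubule-like cluster 29 reaches 175 CPM in the WT library.

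Proximal tubule-like cells had 203 Pigr UMIs in 1342 WT cells (22.5 CPM, 19.5 to 25.8). The I-PpoI library had 0 UMIs in 51 cells of 237603 UMIs in all, which allows a ratio of at most 0.562 at 3 counts, and the exact interval of the ratio reached 0.698. Of 10897 genes in these cells 22.7% were lower and 10.4% higher by a fold of 2 or more. The WT level varied between clusters, at 175 CPM in cluster 29 (41 cells, with Slc7a13, a marker of the last proximal segment, among its leading genes), 36.6 CPM in cluster 23, 27.7 CPM in cluster 24 and 6.81 CPM in cluster 8. The I-PpoI library had 0, 8, 2 and 6 cells in these clusters, and 29 of its 51 in cluster 17, at a median of 847 UMIs. Within clusters 23, 24 and 8 the interval of the ratio reached 4.19, 3.75 and 4.49, so no lower level was shown within them. Cluster 7, with 389 I-PpoI cells and no WT cell, matched the proximal tubule list best but was led by genes of another list and was left unnamed. It had 56 Pigr UMIs (11.2 CPM, 8.42 to 14.5). All other cells had 0.496 CPM in the I-PpoI library and 0.364 CPM in the WT library. Fcamr, the other receptor that binds IgA and IgM, had 1 UMI in I-PpoI and 33 UMIs (3.65 CPM) in WT proximal tubule-like cells, and none in the distal nephron of either library.

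The other genes of the pathway were counted in the distal nephron, where 16.5% of all genes were higher and 7.56% lower, with a median log2 ratio of 0.22. Of 20 genes for the cytokine signals known to act on Pigr, 7 were higher and none lower in I-PpoI cells, with a median log2 ratio of 0.75. With mitochondrially encoded UMIs left out of the CPM, 5 were higher and none lower, with a median of 0.54. The share over all genes was not taken in that setting. Ifngr1, a chain of the interferon gamma receptor, had 94.0 CPM in I-PpoI and 24.1 CPM in WT cells, a ratio of 3.90 (3.20 to 4.79). Nfkbia, the NF-kappa-B inhibitor, had 157 and 66.0 CPM, a ratio of 2.38 (2.09 to 2.71), and Irf1, an interferon-induced factor, 35.2 and 17.6 CPM, a ratio of 2.0 (1.55 to 2.60). Of 15 genes of transcytosis and apical recycling, 1 was higher (Rab3b, a vesicle GTPase, at 18 UMIs in I-PpoI and 2 in WT cells) and none lower, with a median log2 ratio of 0.11, a share of higher genes below the 16.5% of all genes. Rab11a, of recycling endosomes, had 172 CPM in I-PpoI and 87.2 CPM in WT cells.

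Of 13 measured genes of epithelial mucosal defence, 9 were higher and 2 lower, against 16.5% and 7.56% of all genes, with a median log2 ratio of 1.57 against 0.22. The shift was not confined to epithelium. In macrophage-like cells 10 of 11 measured genes were higher and 1 lower, against 14.6% and 12.8% of all genes, with a median log2 ratio of 1.97. Proximal tubule-like cells had 3 of 7 higher and 3 lower, against 10.4% and 22.7% of all genes. With a minimum of 50 UMIs per gene only 2 were measured in them, with 0 higher and 1 lower. Free RNA was not removed, and its part was not tested. Lcn2, a bacteriostatic lipocalin, had 4516 CPM in I-PpoI and 106 CPM in WT distal cells, a ratio of 42.5 (39.1 to 46.4). Clu, a secreted chaperone, had 5050 and 441 CPM, and Wfdc2 3758 and 1267 CPM. Umod was lower, at 2493 CPM in I-PpoI and 6684 CPM in WT cells, as was Spink1, a trypsin inhibitor, at 1.26 and 20.0 CPM. In the same cells the summed thick ascending limb markers had 3730 CPM in I-PpoI and 14319 CPM in WT cells, all 8 detected in both. Proximal tubule markers had 8.99 CPM in I-PpoI cells, with 10 of 14 detected, and 295 CPM in WT cells, with all 14 detected. The part of either list in the lower genes was not tested. Reg3g, an antibacterial lectin, had 80 UMIs in I-PpoI and 0 in WT cells.

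Of 8 measured receptors that bind antibody, 6 were higher and 1 lower in the distal nephron, against 16.5% and 7.56% of all genes, with a median log2 ratio of 2.48. With a minimum of 50 UMIs per gene, 3 of 5 were higher and 1 lower, with a median of 1.33. The higher ones included Fcer1g (31.6 CPM in I-PpoI and 1.58 CPM in WT cells), Fcgr2b and Fcgr3, which leukocytes express, and Lgals3 (893 and 355 CPM). Macrophage markers stood higher in the same cells, with all 12 detected and 500 CPM in the I-PpoI library, against 9 detected and 78.1 CPM in the WT library, where Adgre1, Ms4a7 and Trem2 were at 0. Their part in the list was not tested. Fcgrt, the neonatal Fc receptor, which carries IgG, had 32.0 CPM in I-PpoI and 42.3 CPM in WT cells. Tfrc, the transferrin receptor, was lower, at 26.6 and 125 CPM.

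Among all genes reaching 100 CPM, those most like Pigr over the same 30 points were S100a14 (Pearson r = 0.92), Krt19 (0.91), Cldn4 (0.91), Muc4 (0.89) and Sprr2f (0.88). Within the I-PpoI distal nephron their levels did not all go with Pigr. Cldn4, a tight junction protein, had 611 CPM in the 29 cells with at least 10 Pigr UMIs and 415 CPM in the 229 cells with none, and Muc4, a membrane mucin, 82.8 and 31.8 CPM. Krt19, a keratin of simple epithelia, had 290 CPM in the cells with at least 10 Pigr UMIs and 410 CPM in those with none, and S100a14 56.3 and 79.6 CPM. In WT distal cells Krt19 had 2.17 CPM and S100a14 3.76 CPM. Lcn2 had 6257 CPM in the cells with at least 10 Pigr UMIs and 4029 CPM in those with none.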

How the data were processed

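The deposited values are raw UMI counts for each barcode. The authors used Cell Ranger and mm10, per the labels, which name version 3.1 where the file header names 6.0.2. Cells with at least 200 genes and at most 50% mitochondrially encoded UMIs were kept. Scrublet's automatic threshold worked in 1 library only (30 and 5 barcodes in I-PpoI and WT), so the top 4% of doublet scores was left out in both, 142 and 123 barcodes. Free RNA was not removed. Clusters (scanpy 1.11.5, counts scaled to 10000, 2000 variable genes, 30 components, 15 neighbours, resolution 1) were made without immunoglobulin genes, Jchain and Pigr. To count, a marker needed 25 CPM and, with 10 CPM added to both, 4 times the level of the median cluster. A name needed 3 markers. Clusters holding every marker of 2 lists carry both names.

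UMIs were summed per library and class, with exact Poisson, Clopper-Pearson and conditional binomial 95% intervals. A gene counted as higher or lower at a fold of 2 with at least 10 UMIs in the class over both libraries. Shares after thinning are the exact expected shares, used in place of a random draw because draws differed. PCR and sequencing errors are not in the intervals. Steps were tested on simulated data. Of the gene identifiers, 30934 of 31053 matched GENCODE M21, which gave the coordinates.

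The 8 genes and the gene lists were chosen with earlier results of these data known. Named genes are the 8, the genes most like Pigr and Igkc, and list members past the fold, with most UMIs or listed by name for a role in handling antibody. The doublet rule, joint names, the split into antibody-secreting and B cell-like cells, the use of expected shares, and the values without single barcodes, without the cells with most Pigr, without shared barcodes or in macrophage-like cells free of other antibody UMIs were set after the data were seen. A few genes that the naming rule covers are not reported here.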

Additional observations from a re-analysis of the deposited data

Results flagged for a closer look

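In the WT library, 1 barcode left out by its doublet score held 310 of the library's 316 Jchain UMIs, with 442 Ighm and 2222 Igkc UMIs among 12264 in all. It had no Igha, Ighd or Ighg2b UMI and 373 UMIs of the proximal tubule gene Kap. It carried 17 UMIs of plasma cell markers and 4 of B cell markers. The comparison of antibody-secreting cells does not include it, so the count of 0 in the WT library is of cells that passed the doublet rule.

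In the I-PpoI library, the barcode with most Igkc among those left out had 164 Igkc, 16 Igha and 15 Jchain UMIs among 1541 in 105 genes, and lay under the gene limit. Both are barcodes that no comparison between cell classes uses, although the totals over all barcodes include them. With 1 library per group, no sample could be set apart from others of its group.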

How the results depend on the processing

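Of the values recomputed under the alternatives, 272 stayed close to the reported value, 46 moved and 1 reversed. Close meant within its counting interval, or within 1.5 times for counts of cells. Medians of gene lists, which have no such interval, were held to a fixed log2 distance. The Pigr ratio in the distal nephron stayed above 1 under all 10 alternatives (11.4 to 17.2), and was 17.2 with a mitochondrial limit of 25%. The Ighm ratio in macrophage-like cells stayed below 1 under all 10 (0.435 to 0.636), and was 0.636 when only clusters with at least 20 cells in each library entered. The Pigr ratio in thick ascending limb-like cells, a class named by whole clusters, ranged from 8.92 to 120. The Igkc ratio in B cell-like cells reversed to 1.40 when clusters were made with antibody genes, where the class gained 1 I-PpoI cell. Under that setting the B and plasma cells held 99.0% of I-PpoI Igkc. With doublets kept they held 29.8% of WT Igkc, which cannot include the WT barcode left out by its doublet score, with 2222 of 3287 Igkc UMIs. Naming each cell by its own markers put 1201 I-PpoI and 465 WT cells on the plasma side of the split (the cause was not tested). Distal nephron cells also held plasma cell markers, so these were not taken as antibody-secreting cells. The B and plasma cells so named had an Igha share of 91.7% and 99.3% of I-PpoI Igkc. The share of distal cells with a Pigr UMI was 7.38% in I-PpoI cells thinned to 500 UMIs, and 35.9% in I-PpoI and 8.48% in WT cells when not thinned. Requiring 10 UMIs for an isotype left 5 IgM or IgD cells in each library, against 14 in the I-PpoI and 23 in the WT library with 3.

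Median depth was 6647 UMIs in I-PpoI and 3486.5 UMIs in WT cells. No paired analysis was possible because each group is 1 library. Leaving out a library leaves no comparison.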
